A study of Mus musculus with 9 samples.

Results

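The respiratory chain transcripts that mouse mitochondrial DNA (mtDNA) encodes were followed in sorted midbrain dopamine (DA) neurons with 0, 1 or 2 floxed alleles of Dot1l. The 10 genes were mt-Nd1, mt-Nd2, mt-Nd4, mt-Nd5 and mt-Nd6 (complex I), mt-Cytb (complex III), mt-Co1, mt-Co2 and mt-Co3 (complex IV) and mt-Atp6 (complex V). They were chosen by symbol, as 10 of 47729 genes counted, and the annotation of GRCm38 placed every one of them on the mitochondrial chromosome, among 37 genes there. DOT1L is the methyltransferase of lysine 79 on histone H3, and the comparison asked whether transcripts made inside mitochondria differed when the nuclear gene was floxed.

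All embryos were at E15.75, a day count of gestation, on the C57/Bl6 strain. All, controls included, carried 1 Pitx3-Cre allele, which drives the recombinase in post-mitotic midbrain DA neurons, and a Rosa-lox-stop-lox-Yfp reporter that marked the recombined cells for sorting. The groups were Dot1l(+/+) with 3 libraries, Dot1l(fl/+) with 3, and Dot1l(fl/fl) with 2. A library labelled Dot1l(fl/fl) 3 was not analysed here. Per the study's methods each library pooled several embryos, and every litter gave embryos of each genotype. Cre was expressed from the Pitx3 locus itself, so 1 Pitx3 allele was altered in the controls as well. The floxed exon could be removed only in cells that expressed Cre.

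The mitochondrial genome is a small circle read from both strands as long precursors. The precursors are cut, mostly at the tRNAs that lie between the genes, into mRNAs and 2 rRNAs. Its 13 protein-coding genes all specify subunits of the respiratory chain and ATP synthase, and the remaining subunits come from nuclear genes. Midbrain DA neurons are known for a high energy demand and for their sensitivity to inhibitors of complex I.

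Fragments of mtDNA have been copied into the nuclear genome, and a read from a copied stretch cannot be placed by its sequence alone. On GRCm38 a block of chromosome 1 (chr1:24611535-24616197, minus strand, 4663 bases) held annotated pseudogenes that matched 7 mtDNA genes in their order on the circle. The first 681 of the 684 bases of mt-Co2, 678 of the 681 of mt-Atp6 and 783 of the 784 of mt-Co3 recurred there without a mismatch, as Gm28661, Gm10925 and Gm28437. The opening 75 bases of each are shown because no read inside them can tell the mitochondrial gene from its nuclear copy, with capitals for bases identical in both (mt-Co2 chrM:7013-7087, mt-Atp6 chrM:7927-8001, mt-Co3 chrM:8607-8681, plus strand).
mt-Co2: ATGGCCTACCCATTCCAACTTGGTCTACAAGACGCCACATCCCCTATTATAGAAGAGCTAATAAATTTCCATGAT
mt-Atp6: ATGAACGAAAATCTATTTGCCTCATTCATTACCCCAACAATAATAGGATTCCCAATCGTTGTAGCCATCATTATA
mt-Co3: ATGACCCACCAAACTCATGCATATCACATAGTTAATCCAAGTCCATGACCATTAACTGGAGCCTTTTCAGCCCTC

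Both ends of the block fell inside genes, which are therefore copied in part. The copy of mt-Nd4, Gm28439, held bases 1 to 876 of 1378 and then stopped. The copy of mt-Co1, Gm29216, began at base 1063 of 1545 and ran to the end with 1 mismatch. The edges are shown because they divide each gene into a stretch shared with the nucleus (capitals) and a stretch that is not (lower case), at chrM:11013-11072 and chrM:6360-6419 on the plus strand.
mt-Nd4: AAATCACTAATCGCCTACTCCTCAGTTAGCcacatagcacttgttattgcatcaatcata
mt-Co1: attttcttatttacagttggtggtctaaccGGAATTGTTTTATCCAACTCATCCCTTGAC

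A search of 141730 annotated transcripts gave the share of each gene's 75-base windows found exactly in a nuclear one. It was 99.5% for mt-Co2 and mt-Atp6 and 99.9% for mt-Co3, against 61.5% for mt-Nd4, 39.8% for mt-Co1, 5.71% for mt-Nd2 and 1.66% for mt-Nd5. No window of mt-Nd1, mt-Nd6 or mt-Cytb was found there. Windows of 50 or 100 bases gave 99.5% or more for mt-Co2, mt-Atp6 and mt-Co3 as well. Only annotated transcripts were searched, so these shares are minima. Read length, aligner and the treatment of reads with several placements were not given in the sources used here.

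The counts split the genes in the same way. The 7 members mt-Nd1, mt-Nd2, mt-Nd4, mt-Nd5, mt-Nd6, mt-Cytb and mt-Co1 had a mean of at least 50 counts per library, and together held nearly every count. mt-Co2, mt-Atp6 and mt-Co3 summed to 54, 41 and 26 counts over 8 libraries, although mt-Co2 and mt-Co3 form the core of the same enzyme as mt-Co1. mt-Co2, the subunit that takes electrons from cytochrome c, had 7, 2 and 15 counts in Dot1l(+/+), 2, 25 and 2 in Dot1l(fl/+), with 0 and 1 in Dot1l(fl/fl). mt-Atp6, the proton channel subunit of ATP synthase, had 15, 16 and 2, then 0, 4 and 1, then 1 and 2. mt-Co3 had 9, 1 and 2, then 0, 2 and 1, then 10 and 1. When a library shows 0 counts, up to 3 remain possible, which stood at 0.0694 to 0.216 CPM (counts scaled to library size with TMM factors) by library. Most of the values lay at or below 3 counts, so no fold change is given for the 3 genes. Such limits and intervals cover counting error only.

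**Figure D1:**
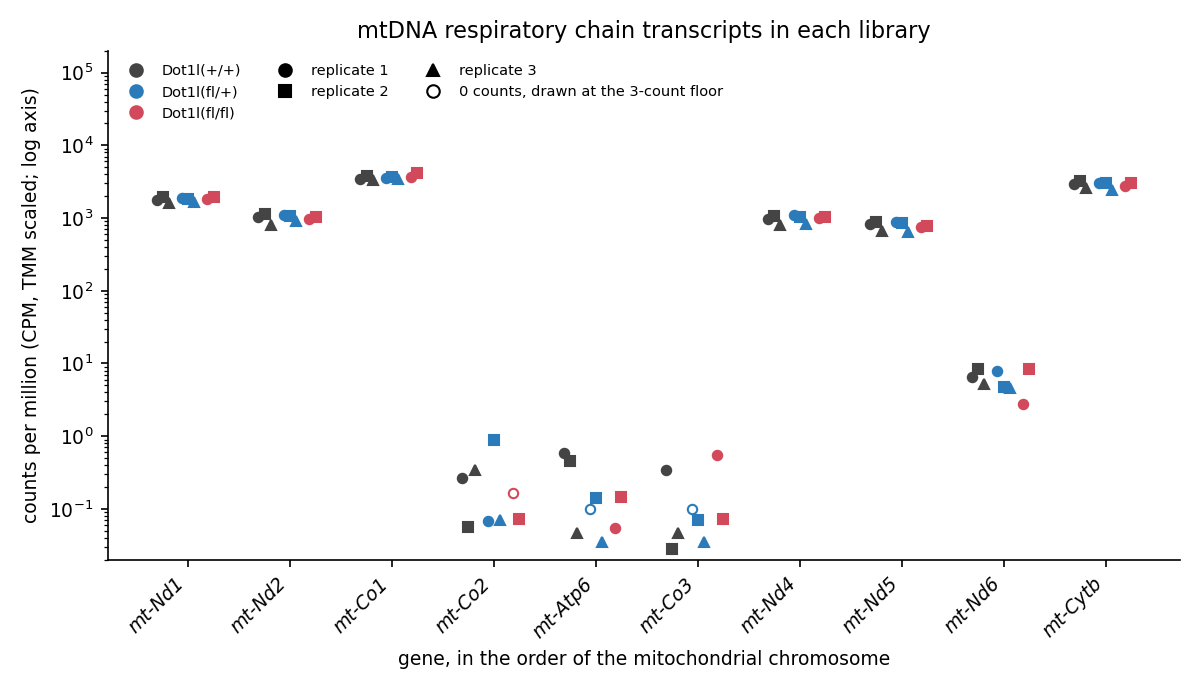
CPM of each of the 10 genes (log axis) in the 8 libraries, with colour for genotype and symbol for replicate, and open symbols for 0 counts drawn at the 3-count floor. 6 genes lie between 643 and 4105 CPM, mt-Nd6 between 2.79 and 8.48, and mt-Co2, mt-Atp6 and mt-Co3 at or below 0.878.

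Of the mtDNA genes outside the 10, mt-Nd3 and mt-Nd4l behaved alike: 97.8% and 98.7% of their windows were shared, and they had 1 and 0 counts in all. mt-Atp8 also had 0 counts in every library, but none of its windows was found in an annotated nuclear transcript. On the circle it lies between mt-Co2 and mt-Atp6. Their chromosome 1 copies leave a gap there, as Gm10925 ends at chr1:24614651 and Gm28661 begins at chr1:24614885. The gap has no annotated transcript among those searched, so whether it holds a copy of mt-Atp8 was not tested. mt-Atp8 is 204 bases long and 43 of them also belong to mt-Atp6. mt-Nd4l likewise ends inside mt-Nd4, over 7 bases. The ends of both are shown with the overlap in capitals, since a read across it belongs to both genes (chrM:7917-7969 and chrM:10157-10173, plus strand).
mt-Atp8: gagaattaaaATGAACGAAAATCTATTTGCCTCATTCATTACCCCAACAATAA
mt-Nd4l: acctactacaATGCTAA

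The nuclear copies had few counts as well. The 7 pseudogenes of the chromosome 1 block had 205 counts in all, from 7 to 53 per library, of which 69 fell on the copy of mt-Nd3, which has a mismatch. On chromosome 2, Gm13341 (chr2:22587291-22587962, minus strand) matched mt-Co2 at 95.9% and had 232 counts, more than mt-Co2 itself. Its counts were 6, 59 and 44 in Dot1l(+/+), 47, 30 and 26 in Dot1l(fl/+), and 8 and 12 in Dot1l(fl/fl). Beside it, Gm13340 (chr2:22588103-22589647, minus strand) matched mt-Co1 at 97.6% and had 587 counts, 0.0734% of those of mt-Co1. These 2 were the only annotated pseudogenes aligned to mtDNA with over 100 counts. How far shared reads lowered the level of any gene was not tested.

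**Figure D2:**
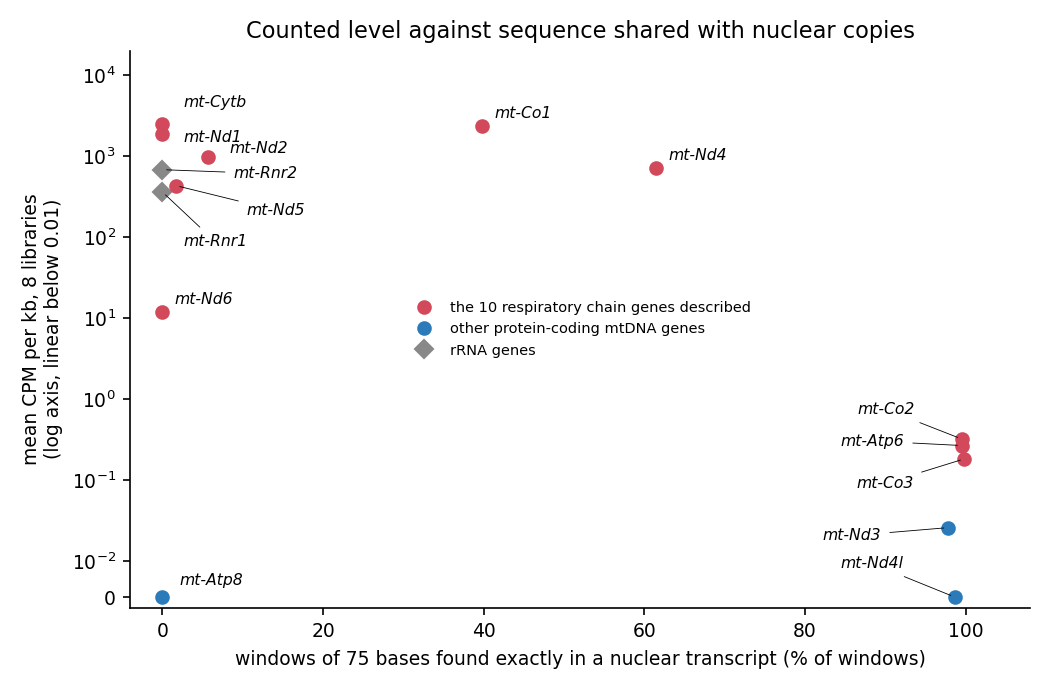
Mean CPM per kb over 8 libraries (log axis, linear below 0.01) against the percent of 75-base windows found in a nuclear transcript, for 13 protein-coding and 2 rRNA genes. The 5 genes with 97.8% or more of their windows shared are lower than all others but mt-Atp8, which is at 0. It shares none with an annotated transcript, and the unannotated part of the chromosome 1 block was not searched.

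Together the 10 genes took 1.09%, 1.20% and 0.975% of counts in Dot1l(+/+), 1.15%, 1.14% and 1.01% in Dot1l(fl/+), and 1.09% and 1.22% in Dot1l(fl/fl). The means were 1.09% ± 0.113 (SD, n = 3), 1.10% ± 0.0807 (SD, n = 3) and 1.15% ± 0.0921 (SD, n = 2), and the genotypes overlapped. mt-Co1 had the 4th highest mean CPM of all genes counted, mt-Cytb the 9th and mt-Nd1 the 19th, whereas mt-Nd6 stood at 10986. Library totals were 26296897 to 43674673 counts in Dot1l(+/+), 28173586 to 29917556 in Dot1l(fl/+), and 18298340 and 13616922 in Dot1l(fl/fl). All 12 markers of DA neurons were detected in every genotype, summing to 6353 to 7271 CPM in Dot1l(+/+) and Dot1l(fl/+) but 6175 and 5112 in Dot1l(fl/fl). Microglial markers summed to 124 to 182 CPM, endothelial ones to 6.29 to 17.1, and blood ones to 11.9 to 19.3 in all but Dot1l(fl/fl) 2, which had 41.3. Radial glia or progenitor markers summed to 67.4 to 114 CPM, and those of oligodendrocyte precursors to 5.16 to 14.1. Markers of other neurons, 8 in number, summed to 374 to 412 CPM in Dot1l(+/+), 389 to 434 in Dot1l(fl/+), and 424 and 448 in Dot1l(fl/fl). Genes that respond to cell dissociation, 12 in number, summed to 1009 to 1275 CPM in the other genotypes and to 1437 and 1473 in Dot1l(fl/fl). The sums for DA neurons, dissociation and, against Dot1l(+/+), other neurons thus differed in Dot1l(fl/fl) without overlap. Their part in the values below was not tested, and in bulk libraries fewer cells of a type and less RNA per cell cannot be told apart.

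As a check of the labels, Dot1l itself was at 105, 84.6 and 94.6 CPM in the controls. It was at 75.5, 65.6 and 76.2 in Dot1l(fl/+), below all controls. The libraries labelled Dot1l(fl/fl) 1 and 2 had 64.9 and 99.0, the second inside the control range. The log2 fold change against Dot1l(+/+) was -0.39 (SE 0.13, edgeR adjusted p = 0.94) in Dot1l(fl/+) and -0.21 (SE 0.15, adjusted p = 0.718) in Dot1l(fl/fl). Counts were over the whole gene, and the floxed exon is 1 among many, so transcripts that lack it would still be counted. Directions below are those of the libraries as labelled.

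The levels of the 7 well counted genes were ordered in nearly the same way in every library. Per kb of annotated length, mt-Cytb averaged 2518 CPM per kb, mt-Co1 2348, mt-Nd1 1879, mt-Nd2 967, mt-Nd4 708, mt-Nd5 433 and mt-Nd6 11.7. mt-Cytb exceeded mt-Co1 in 7 of 8 libraries and the ranges of the 2 overlapped. The other neighbours kept their order in 8 of 8, though the ranges of mt-Nd2 and mt-Nd4 also overlapped. When length was counted only over windows absent from nuclear transcripts, the order changed at both genes the chromosome 1 block cuts. mt-Co1 then came first at 4099 CPM per kb, before mt-Cytb at 2692, in 8 of 8 libraries. mt-Nd4 moved from 708 to 1942 CPM per kb, past mt-Nd2 at 1104 and level with mt-Nd1 at 2037, above which it stood in 2 of 8 libraries. The values of mt-Nd5 and mt-Nd6, at 459 and 13.7, kept them last on both scales. Which scale applies depends on how shared reads were treated, which is not known.

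**Figure D3:**
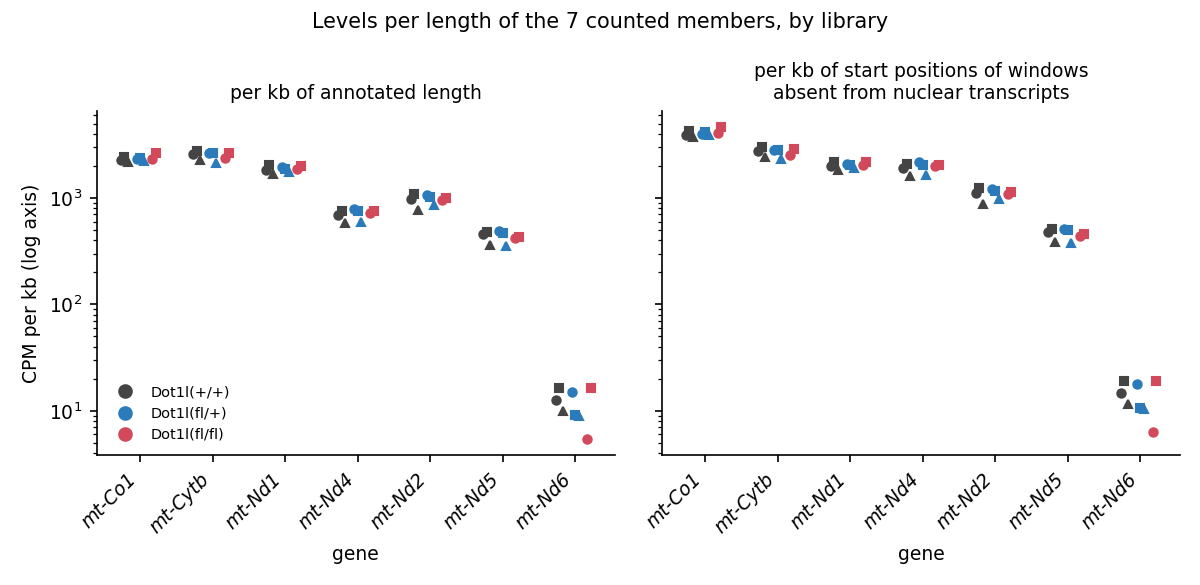
CPM per kb (log axis) of the 7 counted genes in each library, per kb of annotated length (left) and per kb of window starts absent from nuclear transcripts (right), coloured by genotype. mt-Nd4 goes from a mean of 708 to 1942 and mt-Co1 from 2348 to 4099, while mt-Nd6 stays lowest in all libraries.

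Among complex I subunits, mt-Nd1 forms part of the membrane arm next to the quinone site. It was at 1773, 1944 and 1604 CPM in Dot1l(+/+), 1859, 1802 and 1685 in Dot1l(fl/+), and 1800 and 1921 in Dot1l(fl/fl). All 3 genotypes overlapped, and the log2 fold change of Dot1l(fl/fl) over Dot1l(+/+) was 0.07 (95% interval -0.09 to 0.23). mt-Nd2, a proton-pumping subunit, was at 1019, 1135 and 801 CPM, then 1097, 1057 and 897, then 986 and 1034. Dot1l(+/+) 3 and Dot1l(fl/+) 3 were the lowest libraries, and the log2 fold change was 0.04 (95% interval -0.19 to 0.26).

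mt-Nd4 and mt-Nd5, the pumping subunits farthest out on the membrane arm, had the same low libraries. mt-Nd4 was at 960, 1051 and 809 CPM in Dot1l(+/+), 1094, 1031 and 825 in Dot1l(fl/+), and 998 and 1033 in Dot1l(fl/fl), a log2 fold change of 0.11 for Dot1l(fl/fl) over Dot1l(+/+) (95% interval -0.11 to 0.33). mt-Nd5 was at 830, 883 and 660 CPM, then 887, 862 and 643, then 762 and 789, a log2 fold change of -0.03 (95% interval -0.27 to 0.22). In both genes the 2 Dot1l(fl/fl) libraries lay between the extremes of the controls.

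mt-Nd6, the only protein-coding gene of the opposite strand, was the exception in level and in spread. It was at 6.60, 8.48 and 5.20 CPM in Dot1l(+/+), 7.86, 4.71 and 4.64 in Dot1l(fl/+), and 2.79 and 8.42 in Dot1l(fl/fl). The 2 Dot1l(fl/fl) libraries were thus the lowest and the next to highest of 8, on 51 and 117 counts. Their exact 95% Poisson intervals, 2.08 to 3.66 and 6.96 to 10.1 CPM, did not meet, so they differed by more than counting error. The log2 fold change over Dot1l(+/+) was -0.28 (95% interval -1.12 to 0.56), turning to 0.32 without Dot1l(fl/fl) 1 and to -1.28 without Dot1l(fl/fl) 2. mt-Nd5 outnumbered it by 93.7 to 273 counts for each count of mt-Nd6. The 2 genes overlap by 14 bases at their 3′ ends, and whether counting used the strand that the kit kept is not given in the sources used here. The starts of both are shown, each read on its own strand and with G in capitals, because the strand asymmetry of mtDNA is visible in them (chrM:11742-11801, plus; chrM:14011-14070, minus).
mt-Nd5: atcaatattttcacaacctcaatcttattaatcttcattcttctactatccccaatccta
mt-Nd6: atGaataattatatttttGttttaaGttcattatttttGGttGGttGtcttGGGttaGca

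These stretches hold 0 and 12 G. Over the whole genes G made up 9.98% of mt-Nd5 and 28.1% of mt-Nd6, and C 27.1% and 5.97%.

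mt-Cytb, the haem-carrying core of complex III and its only mtDNA-encoded subunit, was at 2954, 3198 and 2624 CPM in Dot1l(+/+), 3015, 3011 and 2463 in Dot1l(fl/+), and 2718 and 3058 in Dot1l(fl/fl). The log2 fold change for Dot1l(fl/fl) over Dot1l(+/+) was -0.02 (95% interval -0.20 to 0.16). mt-Co1, which holds the oxygen-reducing centre of complex IV, was at 3486, 3791 and 3343 CPM, then 3568, 3673 and 3429, then 3622 and 4105. Its log2 fold change, 0.13 (95% interval -0.01 to 0.27), was the largest positive one of the 7 and had an unadjusted p of 0.0754 by edgeR, with an adjusted p of 0.588. Dot1l(fl/fl) 2 was the highest library, and Dot1l(fl/fl) 1 lay inside the control range.

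By edgeR's quasi-likelihood test 0 of the 8 genes tested passed an adjusted p of 0.05 in Dot1l(fl/fl) against Dot1l(+/+), where 0.0% of 17988 genes did. The 8 were the 7 above and mt-Atp6, which passed the filter on low counts through 2 control libraries, while mt-Co2 and mt-Co3 did not pass it. At an unadjusted p under 0.05 the count was again 0 of 8, against 9.27% of all genes. DESeq2 called 0 of the 8 and 183 genes in all. The groups overlapped for each of the 7 counted genes, whereas 12.1% of all genes were higher and 11.6% lower in both Dot1l(fl/fl) libraries than in every control. The median log2 fold change of the 7 was 0.04, beside -0.003 for all genes tested, and 4 of the 7 were above 0.

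In Dot1l(fl/+) against Dot1l(+/+) the values lay closer to 0. The 7 log2 fold changes ran from -0.24 for mt-Nd6 (95% interval -0.97 to 0.50) to 0.06 for mt-Nd4 (-0.13 to 0.26), with a median of 0.007. By edgeR 0 of 8 members passed, where 0.0% of all genes did, and at an unadjusted p under 0.05 it was 0 of 8 against 5.02% (2.16% higher, 2.86% lower). The groups overlapped for all 7, where 5.56% of all genes were higher and 5.97% lower without overlap, and 5 of the 7 were above 0 against 49.0% of all genes. In Dot1l(fl/fl) against Dot1l(fl/+), which shares its libraries with the other comparisons, they ran from -0.05 for mt-Nd6 to 0.12 for mt-Co1 (-0.02 to 0.26), with a median of 0.03. Again 0 of 8 passed by edgeR, where 0.0% of all genes did, and 0 of 8 against 4.02% had an unadjusted p under 0.05 (1.86% higher, 2.16% lower). The groups overlapped for all 7, where 10.2% of all genes were higher and 9.57% lower without overlap, and 4 of the 7 were above 0 against 50.2% of all genes. DESeq2 called 0 members in both comparisons, and 0 and 1 genes. Leaving mt-Nd6 aside, the intervals of the 6 abundant genes reached no farther than -0.28 or 0.33 in any of the 3 comparisons, so that a difference of 2-fold, or 1 on the log2 scale, was outside all of them.

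These values moved with a correction for exon length and GC content, which takes out the part of each library's deviation that those properties explain over all genes. The correction fitted for the 7 genes was 0.20 to 0.35 in Dot1l(fl/fl) 2, and between -0.12 and 0.06 in the other libraries, all on the log2 scale. With it, the median for Dot1l(fl/fl) over Dot1l(+/+) went from 0.04 to -0.08, and 0 of 7 were above 0. In Dot1l(fl/+) it went from 0.007 to -0.008. Leaving out 1 library at a time moved the median for Dot1l(fl/fl) over Dot1l(+/+) between -0.09 (without Dot1l(+/+) 3) and 0.14 (without Dot1l(+/+) 2). With the replicate number as a block it was -0.06. No member passed in any of these fits, and a direction for Dot1l(fl/fl) cannot be given.

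**Figure D4:**
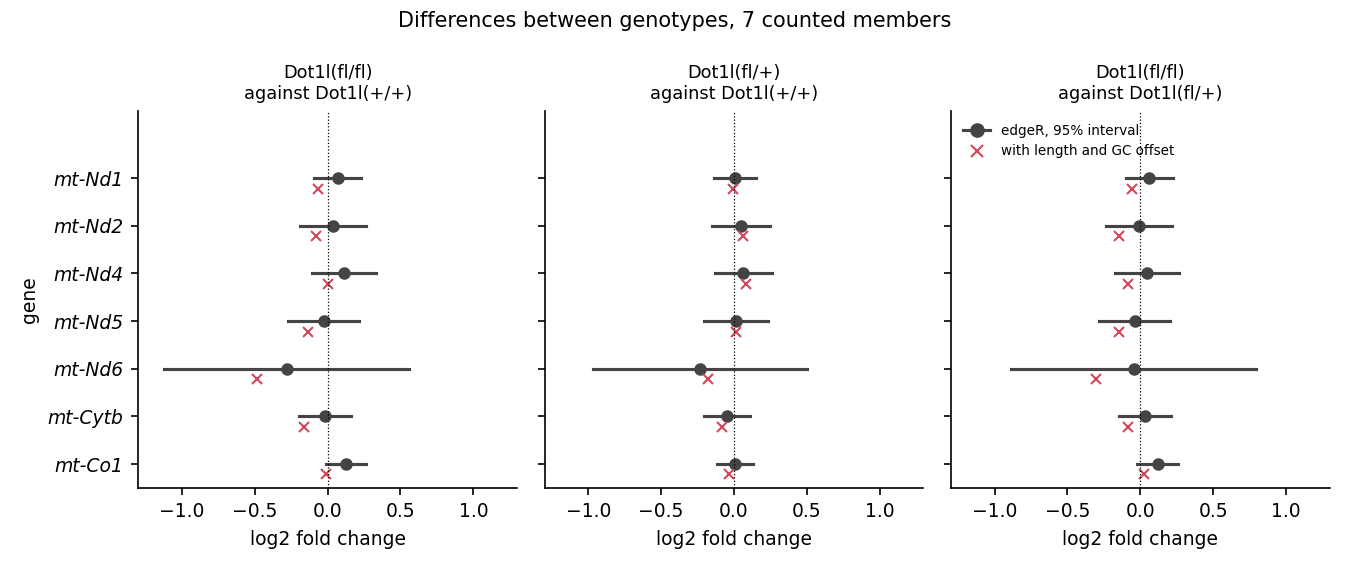
Log2 fold change of the 7 counted genes in the 3 comparisons, with 95% intervals from the edgeR fit (dots and lines) and the value after the length and GC correction (crosses). Every interval holds 0, and in Dot1l(fl/fl) against Dot1l(+/+) the crosses lie at or below 0.

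Within a genotype the genes moved together between libraries. Around the genotype means, over 8 libraries, the correlation between pairs of the 6 abundant genes ran from 0.66 to 0.99, and between each of them and mt-Nd6 from 0.48 to 0.79. Such points share a library, its depth and a similar base composition. They are also not 8 independent points, because deviations cancel around each genotype mean and those in Dot1l(fl/fl) mirror each other. Correlations among other genes are not given for comparison. Dot1l(+/+) 3 was lowest of the controls in all 7 genes, from -0.08 for mt-Co1 to -0.35 for mt-Nd6 on the log2 scale around the mean. mt-Co1 took 31.0% to 34.5% of the counts of the 7, mt-Cytb 24.8% to 26.8%, mt-Nd2 8.14% to 9.52%, mt-Nd4 8.22% to 9.49%, and mt-Nd5 6.46% to 7.69%, over all 8 libraries. For each count of mt-Cytb there were 1.18, 1.19 and 1.27 of mt-Co1 in Dot1l(+/+), 1.18, 1.22 and 1.39 in Dot1l(fl/+), and 1.33 and 1.34 in Dot1l(fl/fl). The Dot1l(fl/fl) values lay above the controls but inside the range of Dot1l(fl/+).

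The 2 rRNAs lie upstream of mt-Nd1 on the same strand and build the mitochondrial ribosome that reads these messages. mt-Rnr1 (12S) was at 313, 358 and 262 CPM in Dot1l(+/+), 365, 306 and 331 in Dot1l(fl/+), and 378 and 442 in Dot1l(fl/fl), above all other libraries. Its log2 fold change over Dot1l(+/+) was 0.40 (SE 0.12), with an unadjusted p of 0.00216 and an edgeR adjusted p of 0.265, and over Dot1l(fl/+) 0.30 (SE 0.12, adjusted p = 0.998). The call over Dot1l(+/+) depended on the method, since mt-Rnr1 passed with DESeq2 (adjusted p = 0.0444) and with edgeR without a filter on low counts (adjusted p = 0.0462). With the length and GC correction its log2 fold change was 0.27 over Dot1l(+/+) (adjusted p = 0.629) and 0.15 over Dot1l(fl/+). mt-Rnr2 (16S) was at 1032, 1260 and 787 CPM, then 1282, 976 and 974, then 1081 and 1213, so that the groups overlapped (0.16, SE 0.13, adjusted p = 0.795). There were 2.86 and 2.75 counts of mt-Rnr2 for each of mt-Rnr1 in Dot1l(fl/fl), against 2.94 to 3.52 in the 6 other libraries; this ratio was chosen after its values were seen and has no test. Of 22 tRNAs, 11 had no count in any library, and the others together had 144 to 382 per library.

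The nuclear genes for the same complexes lay above the controls more often. All 74 nuclear subunits of complexes I, III, IV and V on the lists were tested, and 68 had a log2 fold change above 0 in Dot1l(fl/fl) against Dot1l(+/+), where 49.5% of all genes did. None passed the edgeR threshold, 23 had an unadjusted p under 0.05 in that direction (4.24% of all genes) and 1 in the other (5.03%). With DESeq2 3 of the 74 passed, namely Cox4i1, Atp5f1 and Atp5c1, all higher. Of all 17988 genes 183 passed with DESeq2, 50 of them higher and 133 lower. The median was 0.21, beside 0.04 for the 7 mtDNA genes, and 0.12 beside -0.08 with the length and GC correction. It was 0.18 for complex I (37 genes), 0.21 for complex III (9), 0.29 for complex IV (11) and 0.25 for complex V (17). In Dot1l(fl/+) 67 of 74 were above 0, where 49.0% of all genes were, with a median of 0.13, beside 0.007 for the mtDNA genes. None passed by edgeR, where 0.0% of all genes did. An unadjusted edgeR p under 0.05 was found for 5 of 74, all higher (2.16% of all genes). In all, 5 of 74 lay above every control without overlap, where 5.56% of all genes did. Between the floxed genotypes, Dot1l(fl/fl) over Dot1l(fl/+), 56 of 74 were above 0, where 50.2% of all genes were, with a median of 0.08. At an unadjusted edgeR p under 0.05, 2 were higher (1.86% of all genes) and 1 lower (2.16%). Without overlap, 12 were higher (10.2% of all genes) and 1 lower (9.57%). After the length and GC correction 46 of 74 were above 0, with a median of 0.03. The libraries moved these medians. For Dot1l(fl/fl) over Dot1l(+/+) it was 0.31 without Dot1l(+/+) 2, where Cox4i1 passed, and 0.15 without Dot1l(+/+) 3. For Dot1l(fl/+) over Dot1l(+/+) it was 0.22 without Dot1l(+/+) 2, but 0.07 without either Dot1l(+/+) 3 (54 of 74 above 0) or Dot1l(fl/+) 3 (62 of 74). For Dot1l(fl/fl) over Dot1l(fl/+) it was 0.04 without Dot1l(fl/+) 2 and 0.15 without Dot1l(fl/+) 3. The 12 dissociation genes, whose sums are given above, had a median of 0.49 for Dot1l(fl/fl) over Dot1l(+/+). There 9 of 12 were above 0, against 49.5% of all genes. Over Dot1l(fl/+) their median was 0.30, and 10 of 12 were above 0, against 50.2% of all genes. Their part in the values of the nuclear subunits was not tested.

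The genes named next had the 2 smallest edgeR p-values of each complex in Dot1l(fl/fl) against Dot1l(+/+). Being picked in this way, they do not give the size for the whole lists, whose medians were 0.18 to 0.29. Ndufs5, a complex I subunit, was at 6.71, 8.76 and 11.5 CPM in Dot1l(+/+), 11.1, 7.66 and 11.2 in Dot1l(fl/+), and 2.62 and 3.81 in Dot1l(fl/fl), against the direction of its list (log2 fold change over Dot1l(+/+) -1.49, SE 0.34, adjusted p = 0.16). Ndufb4, also of complex I, went the other way (0.90, SE 0.34, adjusted p = 0.364), at low levels of 3.20 to 4.84 CPM in controls and 7.81 and 8.28 in Dot1l(fl/fl). Cox4i1, the nuclear partner of the mtDNA-encoded core of complex IV, was at 343, 437 and 359 CPM in controls and 514 and 475 in Dot1l(fl/fl) (0.38, SE 0.11, adjusted p = 0.248 by edgeR and 0.0357 by DESeq2). Cox7b of the same complex had 0.43 (SE 0.14, adjusted p = 0.289).

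For complex V, Atp5f1 was at 163, 162 and 140 CPM in controls and 202 and 202 in Dot1l(fl/fl) (0.38, SE 0.11, adjusted p = 0.248 by edgeR and 0.0205 by DESeq2), and Atp5c1 had 0.34 (SE 0.11, adjusted p = 0.281 by edgeR and 0.0384 by DESeq2). For complex III, Uqcrh had 0.36 (SE 0.14, adjusted p = 0.40) and Uqcrc2 0.23 (SE 0.10, adjusted p = 0.494). All of these are log2 fold changes of Dot1l(fl/fl) over Dot1l(+/+) by edgeR, where none passed. Without a filter on low counts Ndufs5 passed with edgeR (adjusted p = 0.0215).

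**Figure D5:**
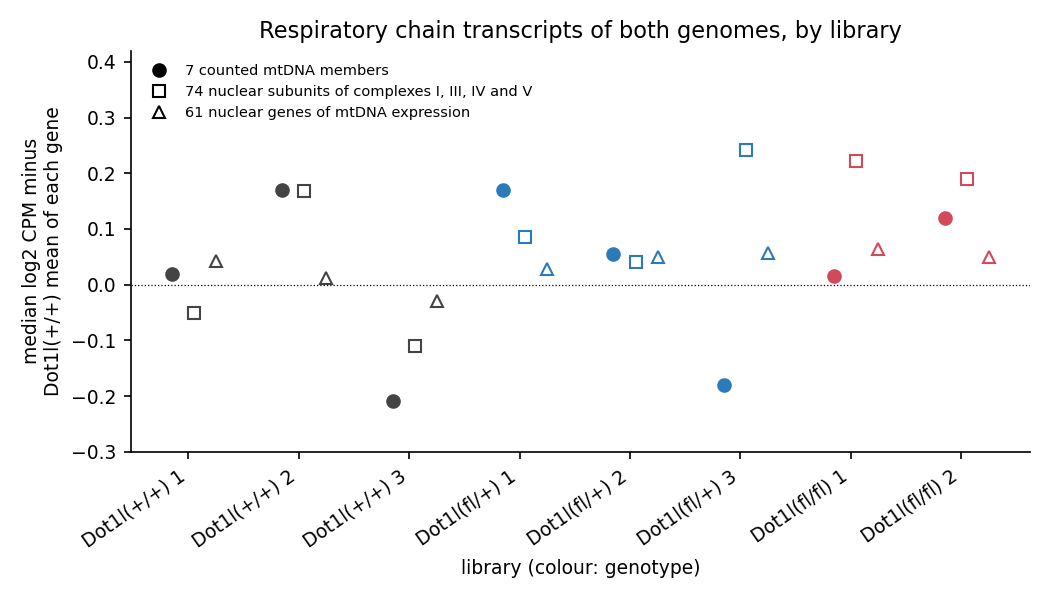
Median log2 CPM, minus the Dot1l(+/+) mean of each gene, for the 7 counted mtDNA genes (filled), 74 nuclear subunits (squares) and 61 nuclear genes of mtDNA expression (triangles) in each library, coloured by genotype. The nuclear subunits lie at 0.22 and 0.19 in Dot1l(fl/fl), and in Dot1l(fl/+) 3 they lie at 0.24 while the mtDNA genes lie at -0.18.

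By library, the median level of the mtDNA genes around the controls was 0.02, 0.17 and -0.21 in Dot1l(+/+), 0.17, 0.06 and -0.18 in Dot1l(fl/+), and 0.02 and 0.12 in Dot1l(fl/fl), in log2 units. The nuclear subunits were at -0.05, 0.17 and -0.11, then 0.09, 0.04 and 0.24, then 0.22 and 0.19. Both sets were high in Dot1l(+/+) 2 and low in Dot1l(+/+) 3. They parted in Dot1l(fl/+) 3, where the mtDNA genes were low and the nuclear subunits highest of all libraries.

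The median levels of the machinery that copies, transcribes and processes mtDNA lay close to the controls. Over 61 genes, translation included, the median by library was 0.04, 0.01 and -0.03 in Dot1l(+/+), in log2 units. It was 0.03, 0.05 and 0.06 in Dot1l(fl/+), and 0.06 and 0.05 in Dot1l(fl/fl). Both Dot1l(fl/fl) libraries thus lay above every control but overlapped Dot1l(fl/+). Polrmt, the mitochondrial RNA polymerase, was at 41.6, 39.6 and 40.0 CPM in Dot1l(+/+), 41.1, 32.9 and 38.6 in Dot1l(fl/+), and 48.9 and 40.9 in Dot1l(fl/fl) (log2 fold change 0.15, SE 0.16, edgeR adjusted p = 0.855, for Dot1l(fl/fl) over Dot1l(+/+)). Tfam, which packages mtDNA and opens its promoters, was at 43.1, 50.9 and 41.8 CPM, then 43.3, 53.2 and 52.0, then 50.6 and 50.8 (0.16, SE 0.15, adjusted p = 0.823). Tfb2m, which works with the polymerase at promoters, was near 6 to 8 CPM on average in every genotype (-0.30, SE 0.33, adjusted p = 0.88). Of 18 genes of transcription and replication, 12 had a log2 fold change above 0, where 49.5% of all genes did, with a median of 0.10. An unadjusted edgeR p under 0.05 was found for 0 of the 18, against 9.27% of all genes. The 2 with the smallest p were Mterf4 (0.37, SE 0.24, adjusted p = 0.697) and Top1mt (0.31, SE 0.26, adjusted p = 0.795).

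Lrpprc and Slirp form the complex that protects mitochondrial mRNAs from decay. Lrpprc was at 90.3, 92.5 and 89.0 CPM in controls, 101, 98.4 and 87.5 in Dot1l(fl/+), and 95.5 and 88.5 in Dot1l(fl/fl) (0.02, SE 0.12, adjusted p = 0.985), and Slirp had 0.12 (SE 0.19, adjusted p = 0.933). Supv3l1, the helicase of the mitochondrial degradosome, had -0.14 (SE 0.22, adjusted p = 0.933). Of 25 genes of RNA processing and stability 14 were above 0, where 49.5% of all genes were, with a median of 0.04. An unadjusted edgeR p under 0.05 was found for 0 of the 25, against 9.27% of all genes. Those with the smallest p were Elac2, which cuts the 3′ ends of mitochondrial tRNAs (0.29, SE 0.17, adjusted p = 0.632), and Pde12, which removes poly(A) tails (-0.29, SE 0.18, adjusted p = 0.656).

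Of 18 genes of mitochondrial translation 10 were above 0, where 49.5% of all genes were, with a median of 0.01. An unadjusted edgeR p under 0.05 was found for 1 of the 18, against 9.27% of all genes. Lars2, the leucyl-tRNA synthetase of mitochondria, had the smallest p. It was at 256, 252 and 172 CPM in Dot1l(+/+), 393, 158 and 172 in Dot1l(fl/+), and 170 and 82.6 in Dot1l(fl/fl) (-0.84, SE 0.28, adjusted p = 0.311). Its call changed with the fit. With the replicate number as a block its log2 fold change was -1.13 (edgeR adjusted p = 0.00107), and over Dot1l(fl/+) -1.10 (adjusted p = 0.00171). Without a filter on low counts it also passed by edgeR over Dot1l(+/+) (adjusted p = 2.43e-09) and over Dot1l(fl/+) (adjusted p = 1.04e-11). It did not pass with DESeq2. With the block and the length and GC correction together it passed by edgeR over Dot1l(+/+) (adjusted p = 0.00012) and over Dot1l(fl/+) (adjusted p = 0.000138). Without Dot1l(fl/fl) 1 its log2 fold change over Dot1l(fl/+) was -1.55, which rests on Dot1l(fl/fl) 2 alone. Taco1, an activator of mt-Co1 translation, was at 12.96, 10.4 and 10.2 CPM in controls, 7.72, 10.2 and 6.92 in Dot1l(fl/+), and 19.7 and 11.9 in Dot1l(fl/fl) (0.50, SE 0.27, adjusted p = 0.591). All values of these lists are for Dot1l(fl/fl) over Dot1l(+/+) unless another is named. With all libraries, the filter and no block, none passed.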

How the data were processed

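RNA of sorted embryonic DA neurons was sequenced by the authors from a strand-preserving kit, with 9 samples labelled and 8 analysed here. The files hold raw counts of reads for each Ensembl gene, as deposited by the authors without normalisation, mapped to GRCm38.p4 after bcl2fastq 2.17 and Trimmomatic 0.30 per the submitters' processing notes. Aligner, counting program and its strand setting are not given in the sources used here. The authors' own DESeq2 comparison tables (normalised means, fold changes, test statistics and p-values) were used only for gene symbols.

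Symbols were joined to counts by identifier, and GENCODE M21 (GRCm38) gave positions for 98.9% of them. Sequences are annotated mtDNA transcripts of that build. Copies were searched with BLAST+ 2.17.0 and by exact windows of 50, 75 and 100 bases. Alignments of at least 100 bases were kept.

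Counts were tested with edgeR 4.0.16 (R 4.3.3; glmQLFit and glmQLFTest, TMM, filterByExpr) in a single fit of 3 genotypes, with Benjamini-Hochberg adjustment over 17988 genes and a threshold of 0.05. SE is the log2 fold change over the root of F. CPM used TMM factors, and library scores a prior count of 2. Alternatives were other scalings (RLE, upper quartile, without mtDNA genes), dropping the filter, keeping genes with 50 or more counts on average, DESeq2 1.42.0, the 2 genotypes compared alone, the replicate block, a length and GC offset (splines with 4 degrees of freedom each), both, and leaving out each library. Scripts were tested on simulated counts. The members and lists were chosen with earlier results of these data known. Named were the 10 genes, other protein-coding and rRNA genes of mtDNA, Dot1l, the 2 nuclear genes with the smallest p of each list in Dot1l(fl/fl) against Dot1l(+/+), 6 genes of mtDNA expression whatever they showed, and nuclear copies with over 100 counts. The labels do not say whether libraries of a genotype are technical or biological replicates. The study describes each sample as a pool of several embryos and counts these pools as its replicates. The p-values measure the spread between libraries. Between libraries of a genotype the chi-square of counts per degree of freedom was 17.4 to 42.2, so none was a repeat within sampling noise.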

Additional observations from a re-analysis of the deposited data

How the results depend on the processing

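Of 378 values of single mtDNA members recomputed under the alternatives, 325 kept their direction, 53 changed sign and 0 passed the threshold, and the members called were 0 under every alternative run. The cause of the sign changes was not tested. Other scalings, both other filters, DESeq2 and the 2 genotypes fitted alone changed the sign of no member with at least 50 counts on average. Genes called in all, 0 in each comparison, became 106 without a filter in the first comparison (Dot1l(fl/fl) over controls), 11 in the second (Dot1l(fl/+) over controls) and 14 in the third (Dot1l(fl/fl) over Dot1l(fl/+)). They became 2 in the first with a mean count of at least 50, and 183 and 1 in the first and the third with DESeq2. Per the study's methods the genotypes came in sets from the same litters, but no source used here says that equal replicate numbers mark a set. Around genotype means, same-number correlations between libraries were -0.031 to 0.045 in 7 pairs, and the others -0.051 to 0.045 in 14. These cannot decide on pairing, because the means rest on few libraries. The 2 Dot1l(fl/fl) libraries deviate from theirs by equal and opposite amounts. Dot1l(+/+) 3 and Dot1l(fl/+) 3 were each lowest of their genotype in all 7 counted members, and no Dot1l(fl/fl) 3 was analysed. With the replicate block, Lars2 passed in the first and the third comparisons, 6 and 4 genes were called in the first and the third comparisons, mt-Nd2 turned to -0.0648 in the first, and mt-Nd4 and mt-Cytb to -0.0572 and -0.0533 in the third.

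With the length and GC offset, mt-Nd1, mt-Nd2, mt-Nd4 and mt-Co1 turned to -0.0657, -0.0818, -0.000374 and -0.0108 in Dot1l(fl/fl) against Dot1l(+/+). In Dot1l(fl/+) against Dot1l(+/+), mt-Nd1 and mt-Co1 turned to -0.00751 and -0.035, and in the third comparison mt-Nd1, mt-Nd4 and mt-Cytb to -0.0581, -0.0828 and -0.0816. Offset and block together called 17 and 9 genes in the first and the third comparisons, where the members' median moved to -0.178 and -0.173. In the first, mt-Nd1, mt-Nd2, mt-Nd4 and mt-Co1 changed sign, to -0.117, -0.178, -0.0975 and -0.0451. There mt-Nd5, mt-Nd6 and mt-Cytb, already below 0, went to -0.256, -0.642 and -0.247. Unadjusted edgeR p-values were 0.048 for mt-Nd2, 0.00703 for mt-Nd5 and 0.00128 for mt-Cytb, and the smallest adjusted p was 0.256. In the second, mt-Nd1 and mt-Co1 changed sign, to -0.00975 and -0.0368. In the third, mt-Nd1, mt-Nd4, mt-Cytb and mt-Co1 did so, to -0.107, -0.173, -0.158 and -0.00837. The smallest unadjusted edgeR p of a member there was 0.00612, with a smallest adjusted p of 0.845.

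Leaving out each library in turn gave 0 to 75 genes in Dot1l(fl/fl) against Dot1l(+/+), with 75 without Dot1l(+/+) 2, 50 without Dot1l(fl/fl) 2 and 4 without Dot1l(fl/fl) 1. It gave 0 to 7 in Dot1l(fl/fl) against Dot1l(fl/+), with 7 without either Dot1l(fl/fl) library, where the lone library left was assumed to vary like the others. Ranges that crossed 0 in the first comparison were -0.0918 to 0.151 for mt-Nd2, -0.142 to 0.059 for mt-Nd5, -1.28 to 0.316 for mt-Nd6 and -0.107 to 0.0624 for mt-Cytb. In Dot1l(fl/+) against Dot1l(+/+) they were -0.0602 to 0.0783 for mt-Nd1, -0.0818 to 0.161 for mt-Nd2, -0.0326 to 0.176 for mt-Nd4, -0.102 to 0.146 for mt-Nd5, -0.12 to 0.0429 for mt-Cytb and -0.0325 to 0.0593 for mt-Co1. In the third they were -0.0929 to 0.0479 for mt-Nd2, -0.0651 to 0.13 for mt-Nd4, -0.174 to 0.0431 for mt-Nd5, -1.04 to 0.547 for mt-Nd6 and -0.0612 to 0.106 for mt-Cytb. The 2 Dot1l(fl/fl) libraries were the shallowest, and at 51 and 117 counts mt-Nd6 allowed no finer statement.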
